A study of Rattus norvegicus with 29 samples.

Results

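Blood mononuclear cells of 5 control rats that had gone without food for 14 h and had then eaten for 6 h (refed) were compared with those of 4 control rats that had eaten freely throughout (fed). These 9 arrays, of 29 in the series, were taken by their titles. The comparison addresses how far 6 h of food brings the fed pattern of expression back. All 9 rats were males of the Wistar strain, 6 months old, kept on standard chow for 4 months from the age of 2 months. They carried no genetic change that the labels name. For reference, 5 control rats fasted for 14 h, and fed, fasted and refed rats on a cafeteria diet (fat-rich, energy-dense foods offered beside the chow, 5 rats a group), are also cited. Each array held the Cy5-labelled RNA of 1 rat beside a Cy3-labelled pool of RNA from all groups, and values are log2 ratios of Cy5 over Cy3. The control fed group numbered 4 because the submitters left out 1 control sample with little RNA. Separate rats were used for each state, so no rat was measured before and after its meal. The hour of bleeding is not given in the sources used here.

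Fasting lowers insulin and raises glucocorticoids, fatty acids and ketone bodies, and blood leukocytes respond through transcription factors of the FOXO, PPAR, SREBP and glucocorticoid receptor pathways. Refeeding reverses these hormones within hours: sterol and fatty acid synthesis genes are switched on through SREBP proteins, while genes of fatty acid oxidation such as Cpt1a return to a low level. Mononuclear cells from a Ficoll gradient are mainly lymphocytes and monocytes, and such preparations also carry platelets, whose RNA comes from megakaryocytes.

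The labelled cells were present by their defining genes. Of the T cell genes with a probe, 25 of 26 gave Cy5 signals well above background on all 9 arrays, as did 17 of 17 B cell genes and 20 of 24 monocyte genes. Of the neutrophil genes 8 of 19 did so, and Mpo, Ctsg, Cxcr2 and Fpr1 were well above background on none of the 9 arrays. Platelet genes were widely detected too, 27 of 32 on all 9 arrays. Between 53.3% and 66.7% of spots were well above background on these arrays, the lowest being that of refed rat 3. Precision is limited by the number of arrays.

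No gene differed between refed and fed control rats at an adjusted p under 0.05 (0 of 24297 genes, 0%; limma, all 29 arrays in 1 fit, Benjamini-Hochberg adjustment). The lowest adjusted p was 0.372. At an unadjusted p under 0.05 there were 1419 genes (5.84%), of which 600 were higher (2.47%) and 819 lower (3.37%) after refeeding. The same rule gave 2816 genes (11.6%) for fasted against fed control rats and 5399 (22.2%) for refed against fasted control rats, and after adjustment 43 (0.177%) and 2267 (9.33%) were called. The 3 comparisons share rats.

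An absence of calls does not show that the states were alike, so the size of difference that each gene's interval allows was recorded. The 95% confidence interval of the difference reached a median of 0.18 to either side of its estimate on the log2 scale. For 23723 genes (97.6%) it excluded a 2-fold difference in either direction, and for 22484 (92.5%) it excluded a 1.5-fold difference. For the remaining 574 genes the interval held a 2-fold difference. These intervals bound the ratios as computed, with an offset added to the signals, which makes the log ratios of dim spots smaller. Of the 24297 genes, 18058 were well above background on all arrays compared. For dimmer genes the difference in RNA could be larger than the interval allows. Over all genes the median difference was 0.01, and the refed mean lay above the fed mean for 52.8% of genes and below it for 47.2%.

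The count of 0 held in every alternative fit except one. When limma's array weights were used, which let arrays that deviate less from their group count for more, 595 genes were called (2.45%), 120 higher (0.494%) and 475 lower (1.95%). The largest weights among the 9 arrays were those of refed rat 15 (3.31), refed rat 6 (2.62) and fed rat 13 (2.58), and the smallest was that of fed rat 7 (0.527). Only some of the genes that this weighted fit called are marked as such below. Others it called lower were Mmrn1, Ltbp1, Gp9, Gp1bb, Treml1, Vcl, Stx11, Rab11a, Cst3, Gapdh, Acaca and Eif4ebp1. Atf5, Rhag, Lamp2, Ndufa1 and Pltp were called lower too. Rpl7, Rpl11, Rps27, Ruvbl1, Arhgdib and Cct3 were called higher.

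By their medians, the genes that fasting had moved were back near the fed level. To choose them by a difference between other rats, the genes called in the fast of cafeteria rats were taken. They were 206 of 24297 (0.848%), 114 higher (0.469%) and 92 lower (0.379%). The variance behind these calls came from the fit to all arrays, control rats included. The choice was therefore not free of the control rats, and could favour genes with little spread between them. In control rats the 114 genes had a median difference from the fed level of 0.31 after the fast and of -0.01 after refeeding. The 92 genes had a median of -0.35 after the fast and of 0.02 after refeeding. Without the lowest and highest 10%, the refed differences ran from -0.15 to 0.14 for the 114 genes and from -0.09 to 0.12 for the 92 genes, and over all genes it ran from -0.12 to 0.12.

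The mean over the 114 genes, in order of rat number (as in all lists of values below), was -0.09, -0.20, 0.08 and -0.05 on the fed arrays of rats 1, 4, 7 and 13. On the fasted arrays of rats 2, 5, 8, 11 and 14 it was 0.16, 0.14, 0.33, 0.23 and 0.48, and on the refed arrays of rats 3, 6, 9, 12 and 15 it was 0.14, -0.12, -0.06, -0.35 and 0.02. All fasted arrays lay above all fed arrays, whereas the refed arrays straddled the fed range, with rat 12 below and rat 3 above it. The mean over the 92 genes was 0.14, 0.13, 0.07 and 0.02 on fed arrays, -0.39 to -0.17 on fasted arrays and -0.03, 0.18, 0.14, 0.28 and 0.00 on refed arrays. All fasted arrays lay below all fed and refed arrays, and the latter overlapped.

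Gene by gene, the refed mean lay within the range of the 4 fed arrays for 89 of the 114 genes and 75 of the 92, against 18 and 4 for the fasted mean. Over all genes these shares were 77.5% for the refed and 68.2% for the fasted mean. The interval of refed minus fed excluded the fasted difference in 83 of the 114 and in 81 of the 92, beside 20% of all genes. At an unadjusted p under 0.05, 6 of the 114 (5.26%) and 1 of the 92 (1.09%) differed between refed and fed rats, beside 5.84% of all genes. The control fast itself, which shares the 4 fed rats, called 18 genes higher and 25 lower. After refeeding their medians were -0.10 and -0.03, with 14 of the 18 and 17 of the 25 below the fed mean. The refed mean lay within the fed range for 10 of the 18 and 23 of the 25.

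**Figure D1:**
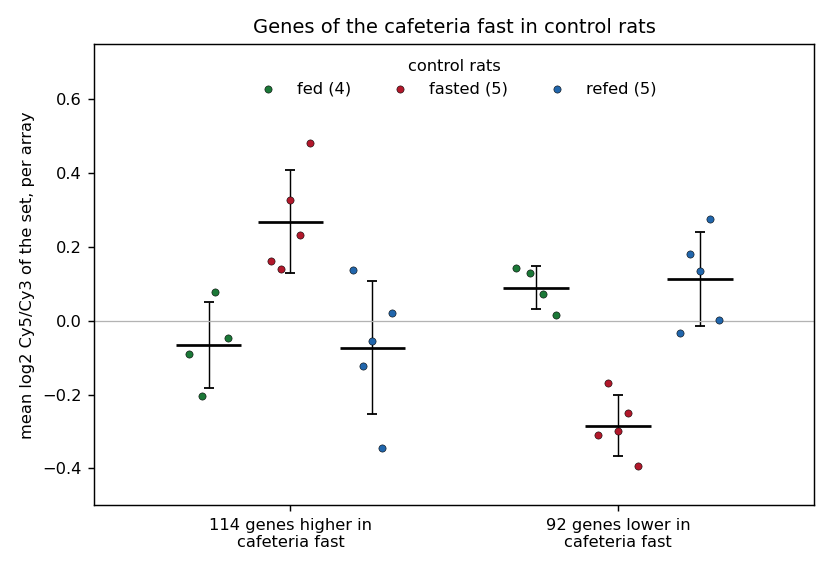
Mean log2 Cy5/Cy3 of the 114 genes higher and the 92 genes lower in the fast of cafeteria rats, on each control array; points are arrays (4 fed, 5 fasted, 5 refed), bars are the group mean and error bars its SD. Fasted arrays average 0.27 and -0.28, while fed (-0.07 and 0.09) and refed arrays (-0.07 and 0.11) overlap.

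Single genes followed the same course. Bcl6, a transcriptional repressor on chromosome 11 that guides germinal centre B cells and restrains inflammatory genes, read 0.21, 0.62, 0.41 and 0.14 on fed arrays. After the fast it read -0.82, -0.70, -0.63, -0.60 and -0.78, and after refeeding -0.15, 0.20, 0.45, 0.55 and -0.21. It fell by 1.05 in the fast (SE 0.16, adjusted p 0.00407, limma). The refed mean differed from the fed mean by -0.17 (95% interval -0.51 to 0.16), with refed rats 3 and 15 below all fed rats and the other 3 within the fed range. A second Bcl6 probe gave 0.27 for refed minus fed, in the opposite direction.

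Other regulators lay close to the fed level as well. Id3, an inhibitor of helix-loop-helix factors, read 0.24, 0.42, -0.24 and -0.04 fed and -0.12, 0.36, 0.31, 0.35 and 0.00 refed, with all fasted arrays at -0.61 or lower. Its refed minus fed difference was 0.08 (-0.34 to 0.51). Cebpd, a C/EBP factor of the acute phase, differed by -0.18 (-0.53 to 0.18), having fallen by 0.84 in the fast (adjusted p 0.0446). The Toll-like receptor gene Tlr6 differed by -0.09 (-0.32 to 0.13) after a fall of 0.59 (adjusted p 0.0252), and refed rats 3 and 15 were again its lowest values, at -0.54 and -0.28. Lpar6, a receptor for lysophosphatidic acid, differed by 0.02 (-0.19 to 0.23) after a fall of 0.53 (adjusted p 0.0344).

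Scd2 and Msmo1, genes of lipid synthesis with lower means after the fast, lay near the fed level in refed rats. Me1 and a few others, given further on, did not. Scd2, a desaturase that makes monounsaturated fatty acids, read 0.23, 0.13, 0.16 and 0.24 fed, -0.57 to -0.18 fasted and -0.09, 0.39, -0.02, 0.06 and 0.33 refed. Its difference from the fed mean was -0.05 (-0.29 to 0.18), after a fall of 0.56 in the fast (adjusted p 0.0446). For Msmo1, a demethylase of cholesterol synthesis, refed minus fed was -0.03 (-0.31 to 0.25) and fasted minus fed -0.59 (adjusted p 0.0607). Fasn (0.01), Srebf1 (-0.12), Srebf2 (0.06), Fdft1 (-0.05) and Dhcr7 (0.03), the fatty acid synthase, the SREBP regulators and more sterol enzymes, differed from the fed mean by the amounts shown, all with an adjusted p of 1. Their fasted values are not given here, so these differences do not show a return from a fasting change. Of 28 measured genes of sterol synthesis and uptake, 12 were above and 16 below the fed mean, with a median of 0.00 and none past an unadjusted p of 0.05. After the control fast the median of this list was -0.14, with 0 genes called.

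Genes that fasting raises were also near the fed level. Adam9, a membrane metalloprotease, read -0.34, 0.04, -0.04 and -0.10 fed, 0.12 to 0.80 fasted and -0.07, -0.05, -0.15, 0.05 and -0.05 refed. Its refed minus fed difference was 0.06 (-0.22 to 0.33) after a rise of 0.67 (adjusted p 0.0405). Tent5c, a poly(A) polymerase of B lineage cells, differed by -0.14 (-0.39 to 0.11) after a rise of 0.58 (adjusted p 0.0446). Cpt1a, which carries long-chain fatty acids into mitochondria, read -0.35, -0.24, -0.52 and -0.54 fed, -0.18 to -0.02 fasted and -0.44, -0.35, -0.55, -0.68 and -0.33 refed. All fasted values exceeded all fed and refed ones, although fasted minus fed (0.33) had an adjusted p of 0.0702, and refed minus fed was -0.06 (-0.23 to 0.11). The endoplasmic reticulum chaperone Hspa5 differed by -0.02 (-0.23 to 0.20), against 0.38 after the fast. The mean of the list of such chaperones was 0.79 on the array of fasted rat 2. On the other fasted arrays that list mean lay between -0.02 and 0.07, so Hspa5 is a weak example of a fasting rise. The fasting comparison and the refed comparison share the 4 fed rats, so that a high or low fed mean enters both.

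**Figure D2:**
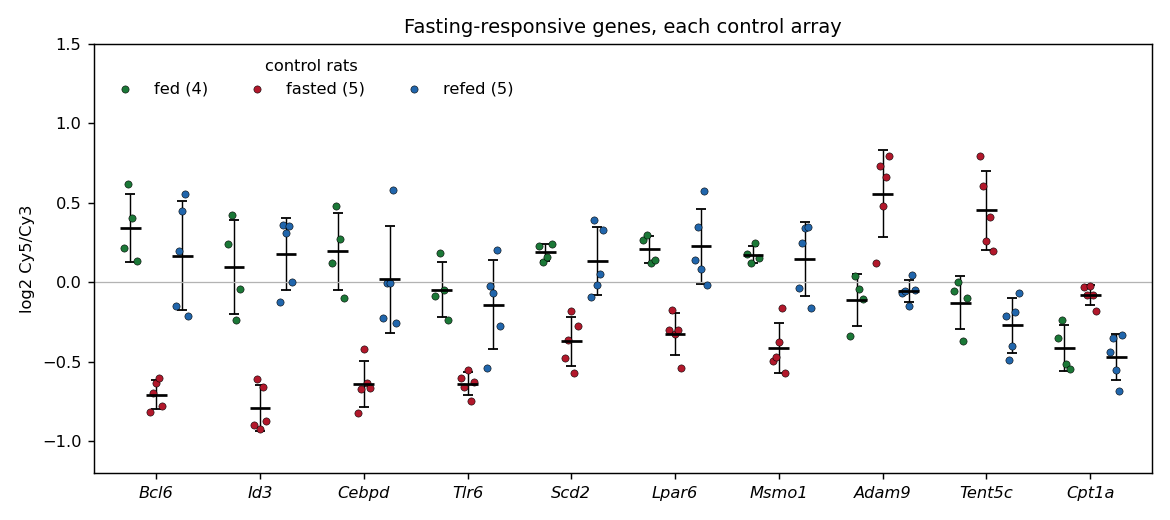
Log2 Cy5/Cy3 of 10 fasting-responsive genes on each control array; points are arrays, horizontal bars group means and error bars SD. For Bcl6 the fasted arrays lie between -0.82 and -0.60, and the refed arrays between -0.21 and 0.55 spread over and below the fed range of 0.14 to 0.62.

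Some fasting and glucocorticoid genes had means above the fed level. Txnip, an arrestin-like protein that binds thioredoxin and limits glucose uptake, read -0.12, -0.76, 0.04 and -0.10 fed, -0.02 to 0.61 fasted and 0.54, 0.01, 0.20, -0.08 and 0.59 refed. Its refed minus fed difference was 0.49 (0.12 to 0.86; unadjusted p 0.0115, adjusted p 0.509), with overlapping arrays. Klf9, a glucocorticoid-induced repressor, differed by 0.39 (-0.01 to 0.80) after 0.59 in the fast, and Per1 by 0.22 (-0.16 to 0.61) after 0.45. Tsc22d3, the glucocorticoid-induced leucine zipper, differed by 0.48 (0.13 to 0.82, adjusted p 0.492), while a second probe gave 0.15. On the first probe, the fed values of -0.32, -1.07, -0.26 and -0.31 include 1 far below the others, that of rat 4. Of 26 measured glucocorticoid response genes, 16 were above and 10 below the fed mean (median 0.04). At an unadjusted p under 0.05, 4 were higher and 1 lower (2.47% and 3.37% of all genes were). Tsc22d3 (0.63) and Anxa1 (-0.77) were called in the weighted fit, in opposite directions.

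The genes with the smallest p among the lower means are given first; none passed the adjusted test. Me1, the cytosolic malic enzyme that supplies NADPH for fatty acid synthesis (chromosome 8), read -0.16, 1.02, 0.11 and 0.06 on fed arrays. On refed arrays it read -1.60, -2.23, -1.39, -1.08 and -1.15, and on fasted arrays 0.42 to 1.05. Every refed value lay below every fed and fasted value, and refed minus fed was -1.75 on the log2 scale, a 3.36-fold difference (SE 0.38, 95% interval -2.52 to -0.97, adjusted p 0.372, limma; a second probe gave -1.37). In the weighted fit it was -1.83 (adjusted p 0.00578).

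The other 4 genes with a symbol and the smallest p among the lower ones also had refed values wholly below the fed ones, which held for 260 genes (1.07%), and 225 genes lay wholly above (0.926%). Sap30l, a paralogue of a Sin3 histone deacetylase subunit, read 0.13, 0.97, -0.05 and 0.14 fed and -0.54, -0.77, -0.49, -0.17 and -0.52 refed (difference -0.80, -1.15 to -0.44). Pygl, a glycogen phosphorylase, differed by -0.67 (-0.98 to -0.36). Lims1, an adaptor of integrin adhesions, differed by -1.01 (-1.46 to -0.56), though a second probe gave -0.05. Ap3s1, a subunit of the AP-3 coat that sorts cargo to lysosome-related organelles, differed by -0.89 (-1.32 to -0.46). Each had an adjusted p of 0.372 and was called in the weighted fit. Fed rat 4 was the highest fed array for Me1 and each of these 4 genes, and without it the lowest adjusted p over all genes was 0.999. Without that rat the differences of Me1, Sap30l, Pygl, Lims1 and Ap3s1 were -1.49, -0.57, -0.50, -0.77 and -0.67.

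Platelet genes made the largest gene group of this kind. Of 36 platelet and megakaryocyte genes 29 were measured, and 25 had a lower and 4 a higher mean in refed rats, with a median of -0.84 beside 0.01 for all genes. None passed the adjusted test, and 18 were lower and 0 higher at an unadjusted p under 0.05 (3.37% of all genes were lower by that rule). On refed arrays 4 members lay wholly below the fed arrays and 1 wholly above, beside 1.07% and 0.926% of all genes. The highest difference in the list was 0.15. In the weighted fit 15 of the 29 were called lower (51.7%, beside 1.95% of all genes). After the fast the same genes had a median of 0.52 above the fed level. In bulk samples, fewer platelets per mononuclear cell and less RNA per platelet cannot be told apart.

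The largest differences in that list were those of secreted and surface proteins. Mmrn1, multimerin, which is stored in platelet granules and binds factor V, read 0.14, 1.29, 0.46 and 0.95 fed and -1.37, -1.80, -0.66, 0.16 and -1.04 refed (difference -1.65, SE 0.43, adjusted p 0.372). Refed rat 12 alone reached the fed range. Ltbp1, a binding protein of latent TGF-beta, differed by -1.55 (SE 0.44, adjusted p 0.372). Its fed values were -0.06, 1.55, 0.16 and 0.13 and its refed values -1.37, -1.69, -1.19, -0.30 and -0.98, which did not overlap. Gp9 and Gp1bb encode parts of the glycoprotein complex by which platelets hold von Willebrand factor. Gp9 read -0.09, 1.10, -0.44 and 0.06 fed and -1.11, -1.61, -1.16, -0.99 and -0.90 refed (difference -1.31, SE 0.31, adjusted p 0.372), and Gp1bb differed by -1.29 (SE 0.39, adjusted p 0.376); neither overlapped. Treml1, a receptor of platelet granules, differed by -1.22 (adjusted p 0.46). Pf4, the platelet chemokine, differed by -0.86 (-1.79 to 0.08), with refed values from -1.62 to 0.62 over fed values from -0.32 to 1.63.

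The 3 members with the largest differences are shown by the 250 bases before their start site, since genes of 1 cell lineage had lower means together (RefSeq, build GRCr8, read 5′ to 3′ on the gene's strand). Both strands were searched, and capitals mark the letters AGGAAG, a form of the ETS factor motif, or their reverse complement. Other forms of that motif were not searched and are not marked. The letters AGATAA, a form of the GATA factor motif, were searched in the same way and are in none of the 3 windows. Other forms, such as the TGATAA in the Mmrn1 window, were not searched.
Mmrn1, chr4:91233166-91233415, strand +: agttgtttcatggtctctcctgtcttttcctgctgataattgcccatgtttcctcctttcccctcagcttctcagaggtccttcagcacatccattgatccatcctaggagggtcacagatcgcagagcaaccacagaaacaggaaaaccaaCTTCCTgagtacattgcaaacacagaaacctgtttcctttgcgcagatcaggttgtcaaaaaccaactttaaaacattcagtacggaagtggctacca
Ltbp1, chr6:26177302-26177551, strand -: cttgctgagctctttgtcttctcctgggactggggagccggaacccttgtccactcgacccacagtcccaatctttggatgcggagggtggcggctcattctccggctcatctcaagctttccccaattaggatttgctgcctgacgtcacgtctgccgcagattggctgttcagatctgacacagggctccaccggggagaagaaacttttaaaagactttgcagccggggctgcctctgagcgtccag
Gp9, chr4:121792592-121792841, strand +: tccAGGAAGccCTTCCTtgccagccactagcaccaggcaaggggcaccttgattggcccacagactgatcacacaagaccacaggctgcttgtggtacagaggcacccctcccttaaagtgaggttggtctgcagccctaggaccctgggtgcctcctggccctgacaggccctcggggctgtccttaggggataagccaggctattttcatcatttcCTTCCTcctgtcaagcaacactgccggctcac
Gp9 held these ETS letters 3 times and Mmrn1 1 time, and Ltbp1 held neither set of letters in this window. Of 23 measured platelet genes with an entry in the table, 14 held the ETS letters (60.9%) and 5 the GATA letters (21.7%). Of all 33469 windows of the same length, 29.5% and 10.3% did so. That wider set was not limited to measured genes or to 1 window per gene, so the shares are not of like sets. A match of letters is a description of the window and not of binding.

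The mean of the measured platelet list moved with all these genes. It was -0.23, 0.70, -0.23 and 0.11 on the fed arrays, 0.43 to 0.69 on the fasted and -0.81, -1.01, -0.62, -0.18 and -0.55 on the refed arrays. Fed rats 1 and 7 thus lay just below refed rat 12, and the other refed rats lay below all fed rats. With that mean as a covariate in the fit, the list's own median was 0.07, its members making up that covariate, and the differences of Me1, Sap30l, Pygl, Lims1 and Ap3s1 were -0.70, -0.36, -0.31, -0.45 and -0.38. Without fed rat 4 the list's median was -0.44 and 9 members were lower at an unadjusted p under 0.05. Within the 2 image extraction runs of the scanner software the list's median was -0.84 (2 fed and 2 refed arrays) and -0.81 (2 and 3). On the only slide that held both states it was -0.26 (fed rat 7 and refed rat 15).

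Genes of the actin cytoskeleton and vesicle traffic resembled the platelet list. Of 24 measured, 17 had a lower mean (median -0.14), 10 were lower and 0 higher at an unadjusted p under 0.05 (3.37% of all genes were lower), and 8 were called lower in the weighted fit (33.3%, beside 1.95%). The median was -0.22 and -0.05 within the extraction runs and 0.12 on the slide that held both states. It was -0.07 without fed rat 4, with 6 members lower at that p, and -0.24 without fed rat 7. Vcl, vinculin, read 0.16, 1.09, -0.01 and 0.25 fed and -0.99, -0.86, -0.56, -0.35 and -0.53 refed (difference -1.03, SE 0.27). The 2 other probes of Vcl had a smaller median difference, of -0.26. Stx11, a syntaxin of granule release in cytotoxic cells and platelets, differed by -1.03 (SE 0.30), and Rab11a, of recycling endosomes, by -0.56 (SE 0.14). All 3 had an adjusted p of 0.372 and did not overlap. The list's median was 0.01 with the platelet mean as a covariate. The secreted protease inhibitor Cst3, which was in the monocyte list, differed by -1.23 (SE 0.36, adjusted p 0.372) while the median of the 23 measured monocyte genes was 0.00; with the platelet mean as a covariate its difference was -0.23. Gapdh and Pkm, of glycolysis, differed by -0.60 and -0.64, and by -0.08 and 0.03 with that covariate. Without fed rat 4 they differed by -0.38 and -0.32, and on the slide with both states by -0.10 and 0.42, while the median of 27 glycolysis and glucose transport genes was 0.00.

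Ribosomal proteins were the list with the most members higher at an unadjusted p under 0.05, and their shift depended on how the arrays were scaled. Of 66 measured, 62 had a higher mean in refed rats (median 0.24), and 37 were higher and 0 lower at an unadjusted p under 0.05, beside 2.47% of all genes. In the weighted fit 7 were called higher (10.6%, beside 0.494% of all genes). Rpl7, of the large subunit, read 0.21, -0.29, 0.05 and 0.19 fed and 0.62, 0.52, 0.71, 0.53 and 1.09 refed (difference 0.65, SE 0.16, adjusted p 0.372), without overlap. Rpl11, which also restrains Mdm2, differed by 0.37 (SE 0.09) without overlap, and Rps27, of the small subunit, by 0.36 (SE 0.10) with 1 refed array within the fed range. Probes for ribosomal proteins can also bind processed copies of these genes.

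The median of the ribosomal list was -0.14 when arrays were centred on their median without loess, 0.05 with the scanner's processed signals and 0.09 with Cy5 alone. It was 0.19 in the authors' deposited table, in which the median of all genes was itself 0.13. At an unadjusted p under 0.05, 0, 1, 5 and 6 members were higher in these 4 settings. The direction thus turned for the list, and for Rpl11 (-0.07) and Rps27 (-0.04) but not for Rpl7 (0.19), when loess was left out. Extraction run and rat moved with it too. The median was 0.08 within the first run and 0.42 within the second, and it was 0.13 with 9 members at an unadjusted p under 0.05 without fed rat 4, and 0.19 with 22 such members without refed rat 15. The mean of the list was 0.27, -0.18, 0.22 and 0.34 on fed arrays and 0.44, 0.30, 0.36, 0.33 and 0.64 on refed arrays, so that fed rat 4 stood lowest.

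Other growth-related lists leaned the same way by smaller amounts. All 34 measured ribosome biogenesis genes had a higher mean in refed rats (median 0.12), with 7 at an unadjusted p under 0.05. By that rule 2.47% of all genes were higher. The median of the list was 0.04 without loess. Without fed rat 7, refed rat 9, fed rat 4 and refed rat 15 in turn, 2, 3, 4 and 4 members were at that p. For the proteasome, 29 of 33 were higher (median 0.10) with 8 at that p; the median was -0.06 without loess, and 0.05 with 4 members at that p without fed rat 7. Ruvbl1, an ATPase of chromatin remodelling and small nucleolar RNA assembly, read -0.13, -0.19, -0.20 and -0.16 fed and -0.01, 0.08, 0.04, -0.01 and 0.01 refed (difference 0.19, SE 0.05, adjusted p 0.372). Its groups did not overlap, and its difference was -0.01 without loess. Arhgdib read -0.12, -0.33, -0.53 and -0.13 fed and 0.22, 0.30, 0.19, 0.12 and 0.27 refed (difference 0.49, SE 0.13, adjusted p 0.372), again without overlap. It was 0.13 without loess.

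**Figure D3:**
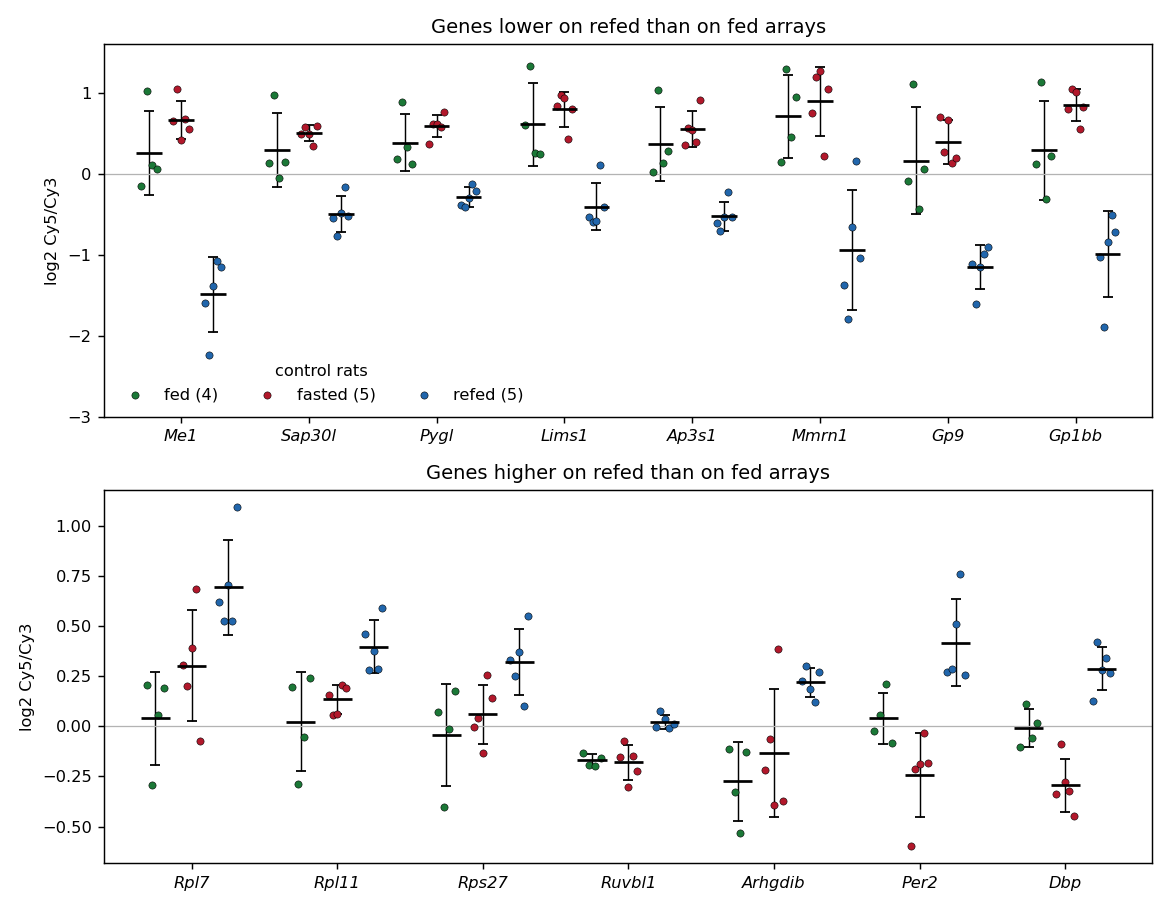
Log2 Cy5/Cy3 on each control array of genes lower (top) and higher (bottom) after refeeding than in the fed state; points are arrays, horizontal bars group means and error bars SD. Me1 on refed arrays runs from -2.23 to -1.08, below all fed and fasted arrays, and the highest fed value of Me1 is that of rat 4, at 1.02.

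A few clock genes had higher means, while the list as a whole lay near the fed level. Per2, a repressor of the circadian loop, read -0.02, 0.06, 0.21 and -0.08 fed and 0.27, 0.29, 0.51, 0.76 and 0.26 refed, with fasted arrays at -0.60 to -0.03. The refed values lay above all fed values (difference 0.38, SE 0.11, adjusted p 0.372), and Per2 was called in the weighted fit (adjusted p 0.0294). Dbp, an output factor of the clock, differed by 0.29 (SE 0.13, adjusted p 0.733), and Nr1d1, which encodes the repressor REV-ERB alpha, by 0.26 (SE 0.12, adjusted p 0.819). Neither overlapped. Bmal1 and Clock, the activators of the loop, differed by -0.02 and 0.01. Of 19 measured clock genes 13 were above and 6 below the fed mean (median 0.05). At an unadjusted p under 0.05, 3 were higher (2.47% of all genes were). The difference of Per2 lay between 0.33 and 0.61 over the value settings, batch terms, weights and covariate tried, and was 0.29 without refed rat 12. On the only slide with both states, fed rat 7 and refed rat 15 differed by 0.05. The hour of sampling of fed and refed rats is not known here, and its part was not tested.

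Metabolic lists had medians near 0, with some members apart. In the list of fatty acid and triglyceride synthesis (27 measured), 8 genes were above and 19 below the fed mean (median -0.03, and 0.00 without fed rat 7). At an unadjusted p under 0.05, 3 members were lower (3.37% of all genes were) and 1 higher, and 3 were called lower in the weighted fit (11.1%, beside 1.95% of all genes). Those lower at the unadjusted p included Me1 and Acaca (-0.21), which makes malonyl-CoA, while Acly, which makes acetyl-CoA, was higher (0.18). The mean of this list was -0.01, 0.09, 0.07 and 0.08 on fed arrays and -0.12, -0.02, -0.05, -0.03 and -0.03 on refed arrays, which did not overlap. Me1, at -2.23 to -1.08 on refed arrays, weighs heavily in that mean, so the gap does not show a fall across the list. The 38 measured genes of fatty acid oxidation and PPAR targets had a median of 0.02 and none past an unadjusted p of 0.05. Slc27a2, a fatty acid transporter and acyl-CoA synthetase, had the largest positive difference of all genes (2.14, -0.76 to 5.05; a second probe gave 1.53). Its values fell at 2 levels in both states: fed arrays read -0.32, -4.14, -4.76 and -4.85 and refed arrays 0.93, 1.39, -0.53, -4.65 and -3.99. Insulin and FOXO signalling genes had a median of 0.02 over 30 genes. Eif4ebp1, the repressor of cap-dependent translation, differed by -0.45 (-0.77 to -0.13, adjusted p 0.481). In the amino acid deprivation list (median -0.05 over 24), 4 members were lower and 1 higher at an unadjusted p under 0.05. In the weighted fit 3 were called lower (12.5%, beside 1.95% of all genes), but 0 were lower at that unadjusted p without fed rat 4. Its member Atf5 differed by -0.92 (-1.58 to -0.26, adjusted p 0.481), with overlapping arrays. Ppara was well above background on none of the 9 arrays and Lepr on 1 fed and 1 refed array, so no difference is given for them.

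Immune lists showed little shift. Inflammatory cytokines and chemokines had a median of 0.04 over 29 genes. Il1b differed by -0.56 (-1.16 to 0.03), with no overlap of arrays, while Cxcl2 read 1.19, -1.55, -0.91, -2.12 and 0.28 on refed arrays against -0.09, -1.10, -0.90 and -0.26 on fed arrays, a wider range in refed than in fed rats. Ccl2, a monocyte chemokine 0.96 above the fed mean after the fast (adjusted p 0.16), differed from the fed mean by -0.18 (-0.78 to 0.42). Interferon response genes had a median of 0.05 over 36, and immediate early genes one of -0.01 over 29.

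Among cell type lists other than platelets, medians lay between -0.08 (plasma cell) and 0.26 (NK and cytotoxic). In the NK and cytotoxic list 18 of 21 measured genes were above the fed mean. At an unadjusted p under 0.05, 1 was higher and 1 lower (2.47% and 3.37% of all genes were). The median was 0.17 without fed rat 4, 0.14 without refed rat 6 and 0.41 without refed rat 9. The mean of that list spread from -0.23 to 0.54 on refed and from -0.29 to 0.00 on fed arrays, and its median was -0.01 on the slide that held both states. Its farthest member downward, Cd226, an adhesion receptor that platelets also carry, differed by -0.65, and by 0.11 with the platelet mean as a covariate. T cell genes had a median of 0.08 over 26, B cell genes 0.04 over 17 and erythroid genes 0.05 over 26. In the erythroid list Rhag differed by -1.66 (-2.87 to -0.44), with fed values from -0.45 to 2.16 and refed values from -1.98 to 0.70, while a second probe gave -0.42.

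**Figure D4:**
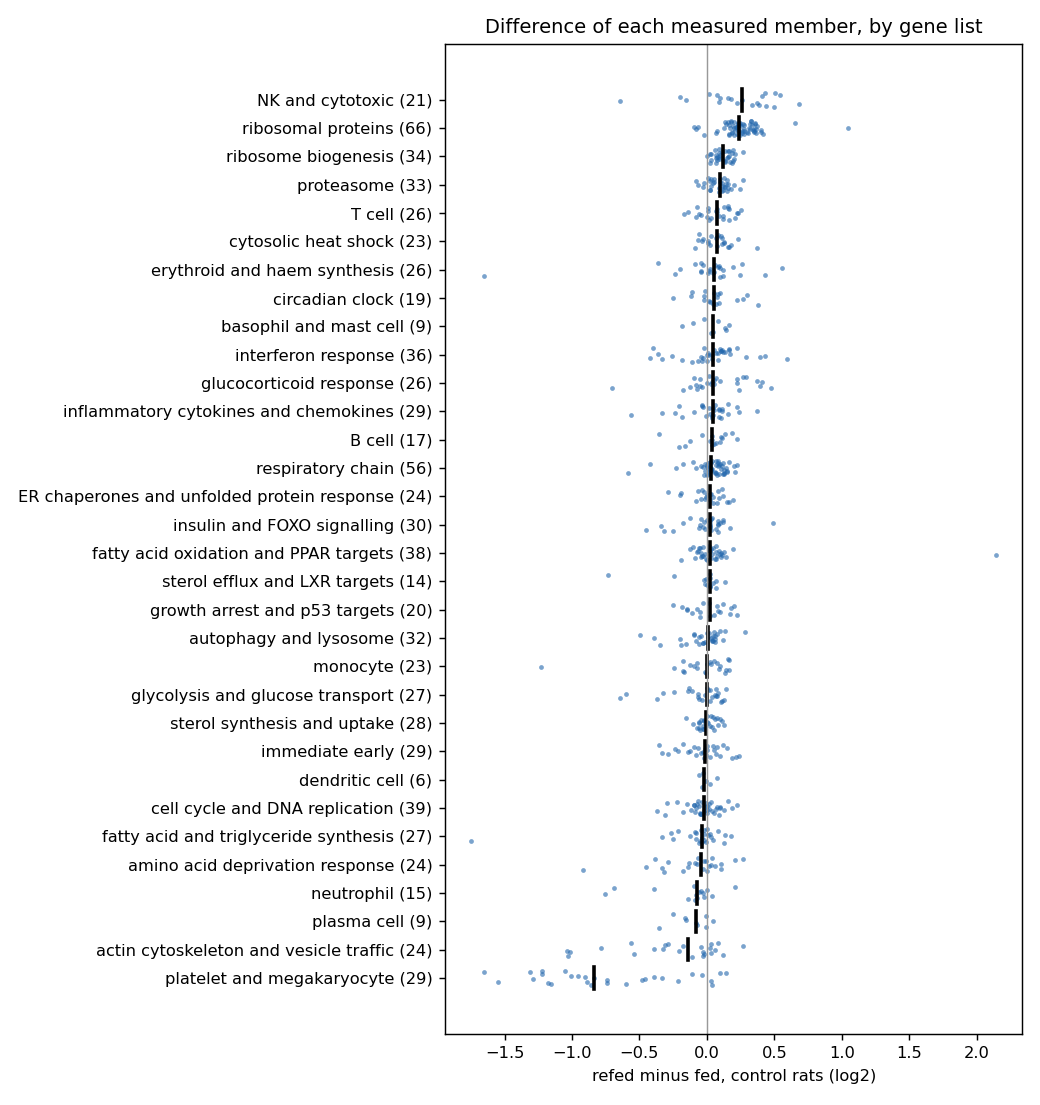
Refed minus fed difference (log2) of every measured gene in 32 lists, with the number measured in brackets; points are genes and black bars list medians. Most medians lie within 0.1 of 0, and the platelet list (-0.84) and the actin and vesicle list (-0.14) lie farthest to the left, the NK (0.26) and ribosomal lists (0.24) to the right.

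The same comparison in cafeteria rats (5 refed, 5 fed) also gave 0 of 24297 genes after adjustment (0%), and 1037 (4.27%) at an unadjusted p under 0.05. The medians of the lists there were -0.29 for platelet genes, 0.00 for ribosomal proteins, 0.02 for ribosome biogenesis and -0.41 for NK and cytotoxic genes. Whether the refed minus fed difference itself depended on diet was tested gene by gene, with 0 of 24297 genes called (0%) and 765 (3.15%) at an unadjusted p under 0.05. The smallest p belonged to Popdc2 (-0.43 in control and 0.46 in cafeteria rats), Arhgdib (0.49 and -0.25) and Tk2 (0.29 and -0.44), all with an adjusted p of 1. Me1 differed by -0.66 and Per2 by 0.33 in cafeteria rats.

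The way arrays were scaled changed the balance of higher and lower genes at an unadjusted p under 0.05. It was 2.47% higher and 3.37% lower in the ratios used here, 2.08% and 6.43% with processed signals and 0.132% and 2.18% with median centring. It was 4.43% and 4.98% with Cy5 alone, and 16% and 3.85% in the authors' deposited table, where the median of all genes was shifted by 0.13. The platelet list kept its direction in each of these, between -1.11 and -0.84.

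**Figure D5:**
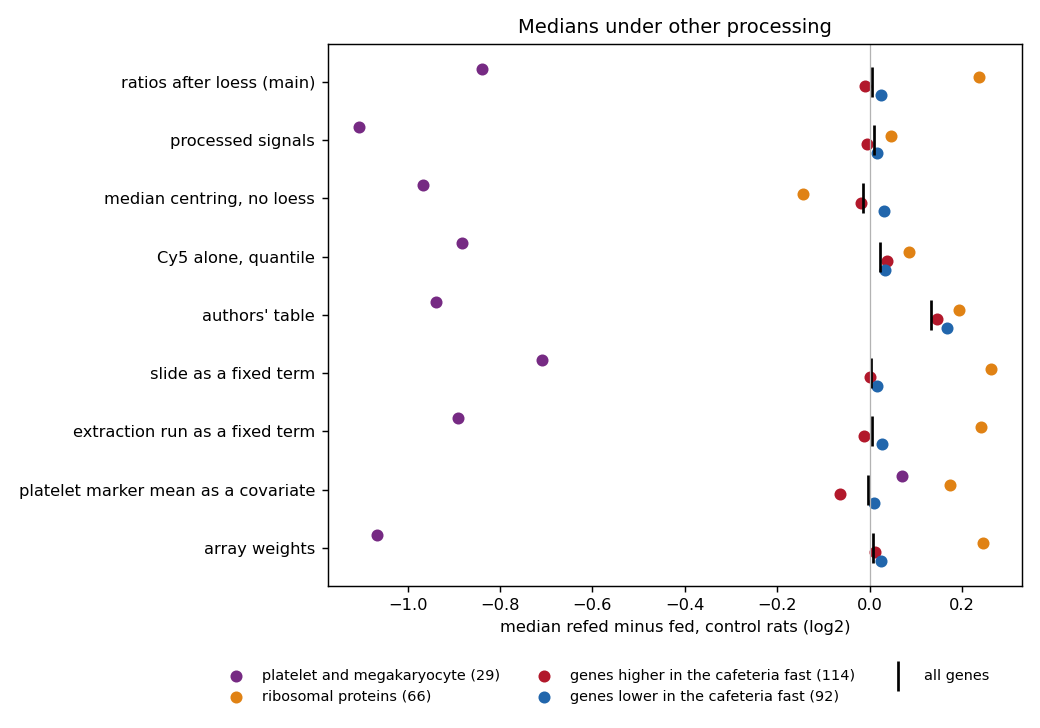
Median refed minus fed difference (log2) of 4 gene sets in control rats under 9 settings of the analysis; colours are gene sets with the number of genes in brackets, and black ticks are the median of all genes. The platelet median stays between -1.11 and -0.71 except with the platelet mean as a covariate (0.07), and the ribosomal median ranges from -0.14 to 0.26.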

How the data were processed

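RNA of blood mononuclear cells from 29 rats was measured on 2-colour Agilent arrays of 41012 probes. The deposited scanner files give mean spot, median local background and processed intensity with flags (Agilent Feature Extraction, version 9.5.1.1, and probe positions of build rn4, per the file headers). The authors' deposited table, per the labels normalized Cy5 signal, tracked log2 scanner Cy5 with slopes of 0.985 to 1.02 in its 29 columns. That fixes its log2 scale and its direction, while normalization between arrays is unknown. Its column medians were 9.46, 9.51, 9.40 and 9.56 (fed) and 9.47, 9.51, 9.76, 9.68 and 9.57 (refed).

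Ratios were computed here with R 4.3.3 and limma 3.58.1 (normexp, offset 50; loess within arrays; control and outlier spots at weight 0; 526 outlier values dropped). Probes with Cy5 well above background on at least 4 arrays were kept (28242, 68.9%). The brightest probe stood for each of 24297 genes, 11905 with a symbol. Symbols came from the GRCr8 gene table (20576 probes matched), and 183 names on another chromosome were set aside. Group means of all 6 groups were fitted to 29 arrays; intervals are 95% intervals from the moderated fit. P-values set each difference of means against the moderated spread within groups, and were adjusted over all genes. With 1 array per rat, that spread holds differences between rats and between arrays together. The fit was tested on simulated data. Median Cy5 signals were 106.5 to 142.9 units on the fed and 115.4 to 142.8 on the refed arrays. All arrays were scanned on 1 day. The 2 extraction runs held 2 fed and 2 refed, and 2 fed and 3 refed arrays.

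Named genes were the 5 with the smallest p per direction, the 2 farthest members of each list, a fixed set of fasting and refeeding genes, and the 3 smallest p of the diet difference. Further members given as examples (Gp9, Rab11a, Nr1d1, Bmal1, Clock, Acaca, Acly) were chosen after their values were seen. Genes and lists were chosen with earlier results of these data known.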

Additional observations from a re-analysis of the deposited data

Results flagged for a closer look

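In groups of 4 or 5 arrays, 21 of 288 sets of values held 1 array that stood far from the others (7.29%; chance gives about 1 in 20). Among fed rats, rat 4 stood apart for Tsc22d3 (-1.07, nearest -0.32), Ltbp1 (1.55, nearest 0.16), Blk (-0.04, nearest -0.47) and the mean of B cell genes (0.13, nearest -0.15). Fed rat 1 stood apart for Hspa4 (-1.53, nearest 0.22), Slc27a2 (-0.32, nearest -4.14), Ccr9 (0.34, nearest 0.01), the mean of neutrophil genes (-0.17, nearest 0.04) and that of fatty acid oxidation genes (-0.03, nearest -0.16). Fed rat 7 did so for Insig1 (0.67, nearest 0.14).

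Among refed rats, rat 12 was the distant array for Stard4 (0.28, nearest 0.05), Cd226 (0.35, nearest -0.57), Lamp2 (0.30, nearest -0.31), Ucp2 (0.10, nearest -0.21) and Lims1 (0.11, nearest -0.42). It was also distant for the means of monocyte genes (0.21, nearest -0.17), growth arrest genes (-0.05, nearest 0.02) and ribosome biogenesis genes (-0.06, nearest 0.05). Refed rat 9 stood apart for Blk (0.21, nearest -0.23) and the mean of B cell genes (0.21, nearest -0.12), and refed rat 3 for the mean of inflammatory genes (0.06, nearest -0.12). These values are differences from the common reference, and their cause was not tested.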

How the results depend on the processing

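No gene was called in any alternative for refed against fed control rats except with array weights, which called 595. The other alternatives were 4 ways of making the values, 3 probe filters, fits to 9 or 14 arrays, slide as a random or fixed term, extraction run, the platelet mean as a covariate (each with 0 called), and leaving out each array in turn (0 to 0 called). Counts at an unadjusted p under 0.05 were 2068 with processed signals, 562 with median centring, 2287 with Cy5 alone and 3419 in the authors' table, and 1113 to 1494 with 1 array left out. The lowest adjusted p with 1 array left out was 0.0597 without fed rat 7 and 0.999 without fed rat 4. The platelet median was 0.0696 with the platelet mean as a covariate, and the ribosomal median -0.14 with median centring. In the authors' table, the medians of the genes of the cafeteria fast were 0.15 (114 higher genes) and 0.17 (92 lower genes). The alternatives for these 2 sets were chosen after seeing the data. Of 109 named genes, 11 changed sign with median centring and 19 with the platelet covariate. Of those at an unadjusted p under 0.05, median centring turned Ruvbl1 (-0.0114), Psme1 (-0.0068), Rps27 (-0.0365), Rpl11 (-0.0661) and Cct3 (-0.10). The covariate turned Pkm (0.0253), Cd226 (0.11), Tubb5 (0.0141), Ndufa1 (0.0115) and Pltp (0.17). The cause was not tested. Array weights called 30 of them. No paired analysis was possible because control fed and refed rats share no rat number. For the diet difference, a fit with the replicate block of rat numbers called 0 genes (1054 at an unadjusted p under 0.05). Same-numbered rats correlated by more than 0.1 in 2 of 14 pairs.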
